A study of Homo sapiens with 12 samples.

Results

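CCN1, CCN2 and ANKRD1 are transcripts that the coactivators YAP and TAZ switch on, and they were followed here with 7 further genes of the same circuit: AXL, AMOTL2, LATS2 and AJUBA, and the genes of the transcription machinery itself, YAP1, WWTR1 (which encodes TAZ) and TEAD1. All 10 symbols were found once each among the 19677 genes of the count tables, and all 10 had enough counts to be tested with the 12470 genes kept. The set was chosen by its leading genes, CCN1, CCN2 and ANKRD1, selected on their higher counts with ascites in drug-treated cells (combination against bezafibrate), so values in that comparison are a description without a test. RNA was sequenced from CAOV3, an established line of human epithelial ovarian carcinoma, labelled as high grade serous and wild type. There were 4 groups of 3 libraries: DMSO alone (control), 10% ovarian cancer ascites with DMSO (ascites), 200 uM bezafibrate (bezafibrate), and bezafibrate with 10% ascites (combination). Exposure lasted 16 hours in the groups given ascites, drug or both, and no time is given for the control. All cells were grown in medium with 10% fetal bovine serum. Ascites is fluid that accumulates around the abdominal organs of patients. Bezafibrate, a lipid-lowering fibrate, activates the PPAR nuclear receptors. The labels of the groups given bezafibrate name no DMSO, so the drug and a difference in solvent cannot be told apart.

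YAP and TAZ do not bind DNA by themselves. They enter the nucleus and bind TEAD factors at their target genes, unless the Hippo kinases LATS1 and LATS2 phosphorylate them and hold them in the cytoplasm. Stiff surroundings, cell spreading, actin tension and serum lipids acting through G protein-coupled receptors keep YAP and TAZ active, while crowding of cells turns them off. Several targets encode proteins that feed back on the circuit, such as LATS2 and AMOTL2. In carcinomas the circuit is known for its role in growth and invasion.

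Total counts per library ran from 11831093 to 18762759. The first principal component, with 37.0% of the variance, separated all 6 libraries with bezafibrate from the 6 without. On the second, with 9.88%, combination replicate 3 stood apart from the other 11. The epithelial keratins KRT8, KRT18 and KRT7 were abundant, at 3005, 1784 and 762.1 CPM (TMM-scaled CPM, the count of a gene relative to the scaled total of its library) in control cells, and EPCAM and CDH1 were present. Of the serous markers, SOX17 had 0 counts in all 12 libraries, WFDC2 had 2, MUC16 had 10 and WT1 had 15. PAX8 was at 0.378 CPM in control cells. The markers thus bear out the epithelial part of the label and not its serous part. Of 13 markers of blood cells and platelets 9 had 0 counts, and the summed level of that list was between 1.10 and 2.29 CPM in every library. Whether replicates are separate cultures, and whether the ascites came from 1 source, is not stated, so SDs and p-values describe the spread between these libraries.

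TEAD factors recognise a short sequence around the letters GGAATG. RefSeq promoter windows (GRCh38.p14, 250 bases before to 50 after a start site) were matched for 8 of the 10 genes, CCN1 and TEAD1 being the other two, and searched for GGAATG on both strands. The CCN2 window held 3 matches, beginning at positions -169, -104 and -95 from the start, and the ANKRD1 window held 2, at -220 and -128. At least 1 match is found in 14% of the 35116 promoter windows of the table, at least 2 in 1.37% and at least 3 in 0.128%. The CCN2 and ANKRD1 windows are shown because they carry the densest matches among the 8 genes. For CCN2 the 250 bases before the start are given (chr6:131951373-131951622, minus strand). GENCODE v29 begins ANKRD1 further upstream than RefSeq, so that 189 of the 250 bases before the RefSeq start lie in its first exon. The 61 bases before that exon (chr10:90921277-90921337, minus strand) and 30 bases around the match inside it (chr10:90921198-90921227, minus strand) are given for ANKRD1. The AXL window with the upstream start (chr19:41218973-41219222, plus strand) is shown beside them as a promoter with 0 matches. Sequences run 5′ to 3′ on the gene's strand, with the matches in capitals.
CCN2: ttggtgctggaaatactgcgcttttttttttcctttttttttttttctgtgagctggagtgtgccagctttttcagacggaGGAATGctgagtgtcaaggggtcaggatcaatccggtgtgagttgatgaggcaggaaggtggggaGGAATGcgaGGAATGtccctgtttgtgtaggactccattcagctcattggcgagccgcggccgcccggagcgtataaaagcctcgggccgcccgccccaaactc
ANKRD1, upstream: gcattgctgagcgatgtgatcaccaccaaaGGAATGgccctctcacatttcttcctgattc
ANKRD1, first exon: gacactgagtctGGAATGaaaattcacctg
AXL: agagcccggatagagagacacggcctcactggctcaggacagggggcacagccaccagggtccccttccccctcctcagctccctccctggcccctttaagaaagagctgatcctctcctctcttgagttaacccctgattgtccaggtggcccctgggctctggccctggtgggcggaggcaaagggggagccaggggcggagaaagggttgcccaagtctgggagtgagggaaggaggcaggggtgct
A match describes letters, not a bound site. Single matches were found in 1 window each of AMOTL2, AXL, AJUBA, LATS2 and YAP1, and neither of the 2 windows of WWTR1 held these letters. The AP-1 sequence TGAGTCA, present in 4.95% of all windows, and the CArG box bound by SRF, present in 1.29%, had 0 matches in the 12 windows of the 8 genes on either strand.

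**Figure D1:**
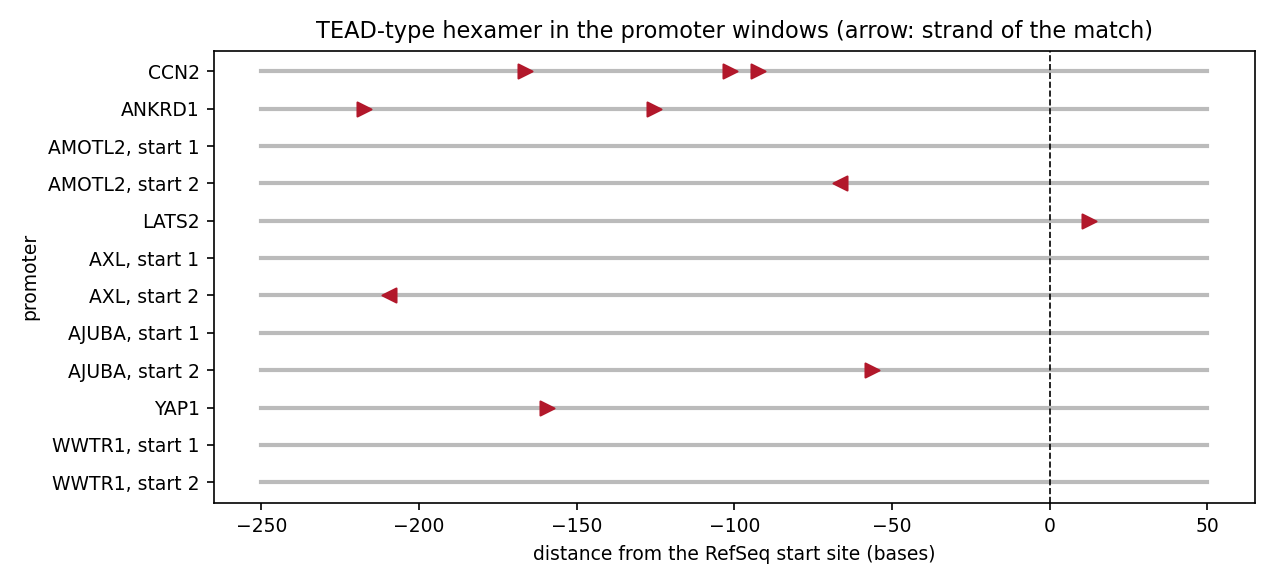
Positions of the TEAD-type hexamer in the 12 promoter windows of 8 genes, by distance in bases from the RefSeq start site (dashed line); arrows point right for a match on the gene's strand and left for the opposite strand. CCN2 has 3 matches and ANKRD1 has 2, all upstream of the start.

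CCN1, CCN2 and ANKRD1 were all lower in cells given bezafibrate, ANKRD1 and CCN2 most. Averaged over cells without and with ascites, ANKRD1 was at 0.488 times and CCN2 at 0.542 times its level without the drug, and CCN1 at 0.729 times. AXL, LATS2, TEAD1 and AJUBA fell by smaller amounts, WWTR1 rose to 1.2 times, and AMOTL2 and YAP1 did not pass the test. With equal group sizes, this average of the 2 drug contrasts is orthogonal to the contrast by which the genes were picked. That gives independence only where the groups spread equally, and ANKRD1 had an SD of 3.41 CPM with bezafibrate and 10.7 with both. Both contrasts use the libraries with the drug, and the 10 genes were chosen with earlier results of these data known. In all, 8 of the 10 genes were called at an adjusted p under 0.05 in edgeR's quasi-likelihood test, 1 higher and 7 lower. Of all 12470 genes tested, 28.3% were called, 15% higher and 13.2% lower. The median log2 fold change was -0.153 over the 10 genes and -0.00472 over all genes.

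ANKRD1 encodes a muscle ankyrin repeat protein that shuttles between sarcomere or cytoplasm and nucleus and is a standard readout of YAP and TAZ. Its levels were 139.3, 147.4 and 140.1 CPM in the control libraries, 150.4, 154.2 and 152.6 with ascites, 58.7, 64.9 and 64.3 with bezafibrate, and 71.0, 90.5 and 88.3 with both. Every library with the drug lay below every library without it, and the nearest pair was 90.5 and 139.3 CPM. Averaged over both drug contrasts, ANKRD1 had a value of -1.03 on the log2 scale (SE 0.0467, edgeR adjusted p 4.31e-12), lower in 6 of 6 libraries with the drug.

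CCN2 encodes a secreted matricellular protein, also called connective tissue growth factor, that acts on matrix production and adhesion. CCN2 was at 129.6, 140.0 and 138.4 CPM in control libraries, 146.8, 140.4 and 138.9 with ascites, 67.8, 70.3 and 70.4 with bezafibrate, and 82.7, 83.3 and 78.5 with both. The 6 libraries with the drug again lay apart from the 6 without it. The averaged drug effect on CCN2 came to -0.88 on the log2 scale (SE 0.0300, edgeR adjusted p 5.03e-24), and by its p-value CCN2 was gene 29 of the 12470 tested. In the GENCODE v29 annotation 8.34% of the exon bases of CCN2 are shared with an antisense gene, AL133346.1; whether the counting used strand is not stated, so reads of the 2 genes over those bases cannot be told apart.

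CCN1, also called CYR61, encodes a secreted integrin ligand of the same family, induced early by serum and growth factors. Its levels were 99.1, 100.7 and 95.9 CPM in control libraries, 101.5, 113.0 and 104.4 with ascites, 66.3, 69.1 and 69.3 with bezafibrate, and 77.1, 87.7 and 80.8 with both. CCN1 too showed no overlap between libraries with and without the drug, with a smaller gap than CCN2 and ANKRD1. The averaged drug effect was -0.46 on the log2 scale (SE 0.0340, edgeR adjusted p 7.44e-14).

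**Figure D2:**
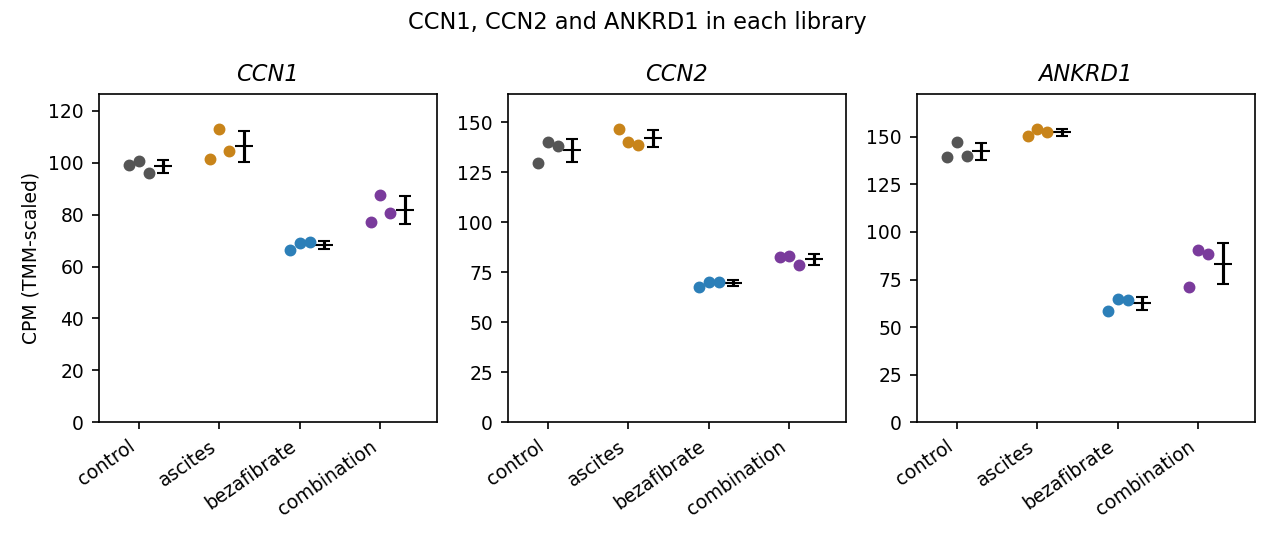
TMM-scaled CPM of CCN1, CCN2 and ANKRD1 in each of the 12 libraries (coloured points, by group), with the group mean and SD (n = 3) in black beside them. In each gene the libraries with bezafibrate, alone or with ascites, lie below all libraries without it, and the combination lies between bezafibrate and control.

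Among the other targets, AXL, a receptor tyrosine kinase for GAS6, was at 314.2 to 336.2 CPM in the 6 libraries without the drug (median 322.8) and 263.3 to 286.9 in the 6 with it (median 276.4). The groups did not overlap, and the averaged effect was -0.23 (SE 0.0213, edgeR adjusted p 1.71e-11). AJUBA encodes a LIM protein that restrains LATS kinases, and its libraries overlapped, at 184.7 to 199.0 CPM without the drug (median 192.2) and 163.6 to 187.9 with it (median 177.7). The averaged effect on AJUBA was -0.12 (SE 0.0267, edgeR adjusted p 0.000837).

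LATS2, both a Hippo kinase and a YAP target, was at 44.7, 44.5 and 47.4 CPM in control libraries, 38.9, 39.9 and 42.6 with ascites, 36.6, 37.3 and 37.9 with bezafibrate, and 36.9, 43.6 and 38.2 with both. Control libraries were the highest, and the other 3 groups lay close together. Its averaged drug effect was -0.16 (SE 0.0432, edgeR adjusted p 0.00316). AMOTL2, an angiomotin that holds YAP in the cytoplasm and is itself a YAP target, had a value of -0.08 (95% interval -0.16 to 0.0015, edgeR adjusted p 0.141). Its control libraries were at 61.4, 61.5 and 61.4 CPM, while the libraries with the drug spread from 51.5 to 68.7, on both sides of them. Without bezafibrate replicate 2 or without combination replicate 2, AMOTL2 was called, with edgeR adjusted p values of 0.0389 and 0.0413.

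WWTR1 rose with the drug, TEAD1 fell, and YAP1 did not pass the test. WWTR1, which encodes TAZ, was at 144.2 to 155.2 CPM without the drug (median 153.2) and 173.4 to 190.9 with it (median 181.6). These ranges did not overlap, and the averaged effect was 0.26 (SE 0.0266, edgeR adjusted p 3.45e-10), higher in 6 of 6 libraries. YAP1 had a value of -0.04 (95% interval -0.09 to 0.0016, edgeR adjusted p 0.149), at 197.7 to 207.6 CPM without the drug and 193.0 to 202.5 with it. Under upper-quartile scaling YAP1 was called lower, at -0.06 (edgeR adjusted p 0.0307). TEAD1, the DNA-binding partner, was at 158.8 to 173.0 CPM without the drug and 142.8 to 150.5 with it, without overlap. Its averaged effect was -0.14 (SE 0.0265, edgeR adjusted p 5.14e-05). Antisense genes share 9.45% of the exon bases of WWTR1 (WWTR1-AS1), 9.97% of YAP1 and 1.3% of AXL, and the same uncertainty of strand holds for these.

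Over the 10 genes, libraries with and without the drug did not overlap in 6, of which CCN1, CCN2, ANKRD1, AXL and TEAD1 were lower and WWTR1 was higher. Among all genes tested, 9.01% did not overlap and were higher with the drug and 6.32% did not overlap and were lower. Markers of fibroblasts also moved with the drug: of 6, 3 were expressed enough to be tested (LUM, COL1A1 and COL3A1). All 3 were called lower, beside 13.2% of all genes. Their list summed to 186.1 to 196.6 CPM over the libraries without the drug and to 159.1 to 177.4 CPM over those with it, and nearly all of it was LUM (183.9 CPM in control cells). DCN had 3 counts over all libraries and COL1A2 had 2. Of the 10 epithelial and serous markers 6 were tested for the averaged drug effect. CDH1, KRT7 and PAX8 were called higher, beside 15% of all genes, and CDH1 was at 18.6 CPM in control and 53.3 with bezafibrate. PAX8 was at a low level, with 0.378 and 1.11 CPM in the same groups. EPCAM, KRT8 and KRT18 were not called, and the means of KRT8 were 3005 and 2914 CPM. Their part in the fall of the YAP targets was not tested, and in bulk RNA fewer cells of a kind and less RNA per cell cannot be told apart.

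**Figure D3:**
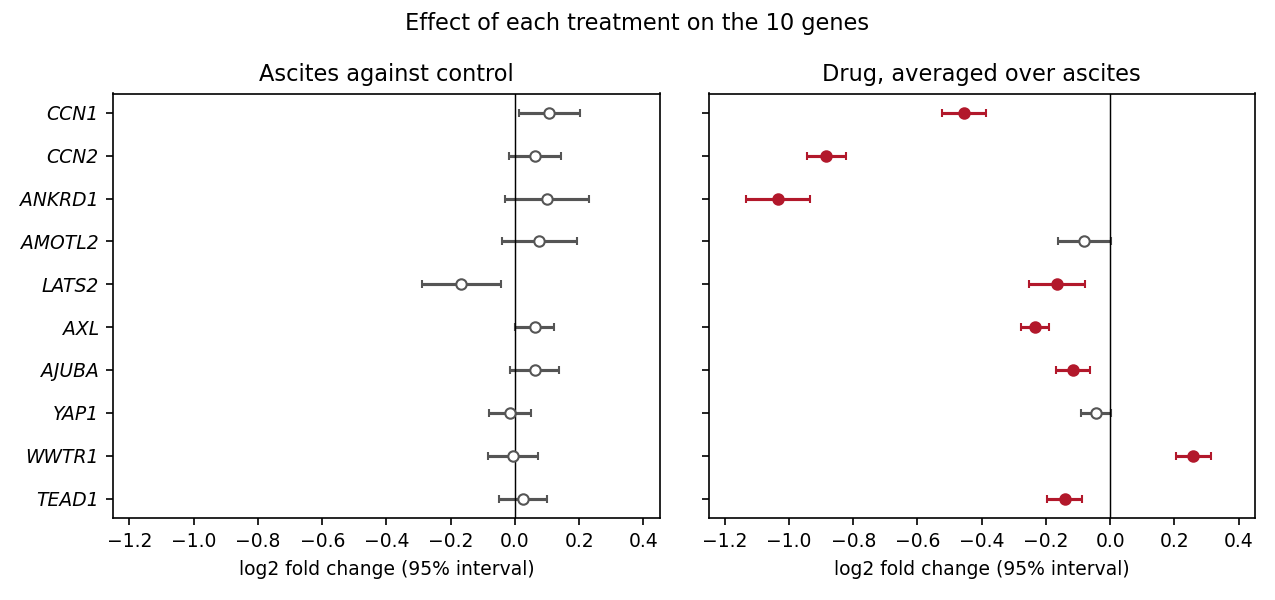
Log2 fold change of each of the 10 genes for ascites against control (left) and for bezafibrate averaged over cells without and with ascites (right), with 95% intervals. Filled red points passed an adjusted p of 0.05; none did on the left, and 8 did on the right, with ANKRD1 at -1.03 and WWTR1 at 0.26.

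The drug effect was also taken apart into cells without ascites (bezafibrate against control) and with ascites (combination against ascites). Each of these shares 1 group with the contrast that picked the genes, so the values are given side by side without a test. Of the 10 genes, 1 lay past the threshold of 0.05 upwards and 7 downwards without ascites, and 1 upwards and 6 downwards with it. Among all genes 17.6% passed without ascites (10.1% higher and 7.55% lower) and 17.8% with it (10.5% higher and 7.29% lower), and nothing is read from these counts. The log2 fold change of ANKRD1 was -1.18 (SE 0.0664) without ascites and -0.88 (SE 0.0655) with it. For CCN2 the values were -0.97 (SE 0.0424) and -0.80 (SE 0.0425), and for CCN1 they were -0.53 (SE 0.0482) and -0.38 (SE 0.0479). All 3 were nearer to 0 when ascites was present, but this difference contains the contrast that picked them, so nothing is read from it. AXL had the same value to 2 decimals, -0.23, in both, and WWTR1 had 0.24 and 0.28. LATS2 had -0.29 (SE 0.0599) without ascites and -0.04 (SE 0.0622) with it. In combination replicate 1, ANKRD1 was at 71.0 CPM against 90.5 and 88.3 in the other two replicates, and without that library its value with ascites was -0.77.

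Ascites without the drug addressed the same genes in libraries that took no part in picking them. None of the 10 was called by edgeR (0 of 10), 3 had an unadjusted p under 0.05 (CCN1, LATS2 and AXL), as did 6.01% of all genes, and DESeq2's Wald test also called 0. Over all genes 0.0882% were called, all of them lower here. Without a filter on low counts 25 of 59 called genes were higher, in a fit of the 2 groups alone 10 of 33, and with DESeq2 1 of 13. CCN1 had a log2 fold change of 0.11 (95% interval 0.01 to 0.20, edgeR adjusted p 0.802), and its 3 ascites libraries, the lowest at 101.5 CPM, lay above the highest control library at 100.7. ANKRD1 had 0.10 (95% interval -0.03 to 0.23, edgeR adjusted p 0.896), with its lowest ascites library at 150.4 and its highest control library at 147.4 CPM. CCN2 had 0.06 (95% interval -0.02 to 0.14, edgeR adjusted p 0.896), and its groups overlapped. LATS2 had the lowest value, -0.17 (95% interval -0.29 to -0.04, edgeR adjusted p 0.675), with all 3 ascites libraries below all control libraries.

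Of the other genes, AMOTL2 had 0.08, AJUBA and AXL each had 0.06, TEAD1 had 0.03, YAP1 had -0.01 and WWTR1 had -0.01 for ascites against control, and the edgeR adjusted p values of these 6 lay between 0.829 and 0.993. The groups did not overlap in 6 of the 10 genes, with CCN1, ANKRD1, AMOTL2, AXL and AJUBA higher and LATS2 lower. Of all genes tested, 5.64% did not overlap and were higher, and 7.06% did not overlap and were lower. The median log2 fold change over the 10 genes was 0.061, against -0.00184 over all genes.

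Ascites in drug-treated cells is the contrast by which the genes were picked. The mean of ANKRD1 went from 62.6 ± 3.41 CPM with bezafibrate to 83.3 ± 10.7 with both (SD, n = 3), that of CCN1 from 68.2 ± 1.67 to 81.9 ± 5.38, and that of CCN2 from 69.5 ± 1.50 to 81.5 ± 2.61. The log2 fold changes were 0.40 for ANKRD1, 0.26 for CCN1 and 0.23 for CCN2. These 3 were the genes past the threshold of 0.05, which 0.0401% of all genes passed in that direction, and nothing is read from this count. In a fit of only these 2 groups 0 genes passed it upwards, so none of the 3 did. Without bezafibrate replicate 1, 2 genes passed it upwards, and without bezafibrate replicate 2, 1 gene did, so not all 3 passed there. Libraries of the 2 groups did not overlap in 5 of the 10 genes, 4 higher and 1 lower, beside 4.44% and 4.83% of all genes. The nearest value outside was that of AMOTL2, at 0.16, followed by LATS2 at 0.08, AJUBA at 0.07 and AXL at 0.06. WWTR1 was at 0.03, TEAD1 at -0.02 and YAP1 at -0.05. Without combination replicate 1 the value of ANKRD1 was 0.51. Markers of blood cells and platelets, mesothelial cells and endothelial cells were at low levels in both groups. The fibroblast list, nearly all of it LUM, was not: it summed to 166.6 to 177.4 CPM with bezafibrate and 159.1 to 177.0 with both. Of its 3 tested genes 0 were called in this contrast. Of the blood and platelet list 3 were tested, of the mesothelial list 1 and of the endothelial list 0. In this contrast 0 of them were called, beside 0.128% of all genes. The 13 blood and platelet markers, 9 of them at 0 counts, summed to 1.10 to 1.69 CPM with bezafibrate and 1.94 to 2.29 with both. The 3 mesothelial markers, none of them at 0 counts over all libraries, summed to 1.21 to 1.29 and 1.47 to 2.46 CPM. The 3 endothelial markers summed to 0.538 to 0.618 and 0.422 to 0.764, and these ranges overlapped. Their part in the values of CCN1, CCN2 and ANKRD1 was not tested.

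With both treatments CCN1, CCN2 and ANKRD1 stayed below the cells without the drug. Their highest combination libraries were at 87.7, 83.3 and 90.5 CPM, and their lowest control libraries were at 95.9, 129.6 and 139.3 CPM. Within each of these genes the order of the group means was ascites, control, combination and bezafibrate, and ascites and control, the neighbours at the top, did not differ by the test. YAP1 had its lowest mean in the combination, at 205.3 ± 1.69 CPM in control, 203.2 ± 5.04 with ascites, 201.5 ± 1.00 with bezafibrate and 194.5 ± 1.32 with both. The ascites effect with the drug minus that without it was 0.30 (SE 0.0938) for ANKRD1, 0.17 (SE 0.0603) for CCN2, 0.15 (SE 0.0680) for CCN1 and 0.25 (SE 0.0864) for LATS2 on the log2 scale. It was between -0.05 and 0.08 for the other 6 genes. The difference contains the contrast that picked the genes and is given without a test.

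**Figure D4:**
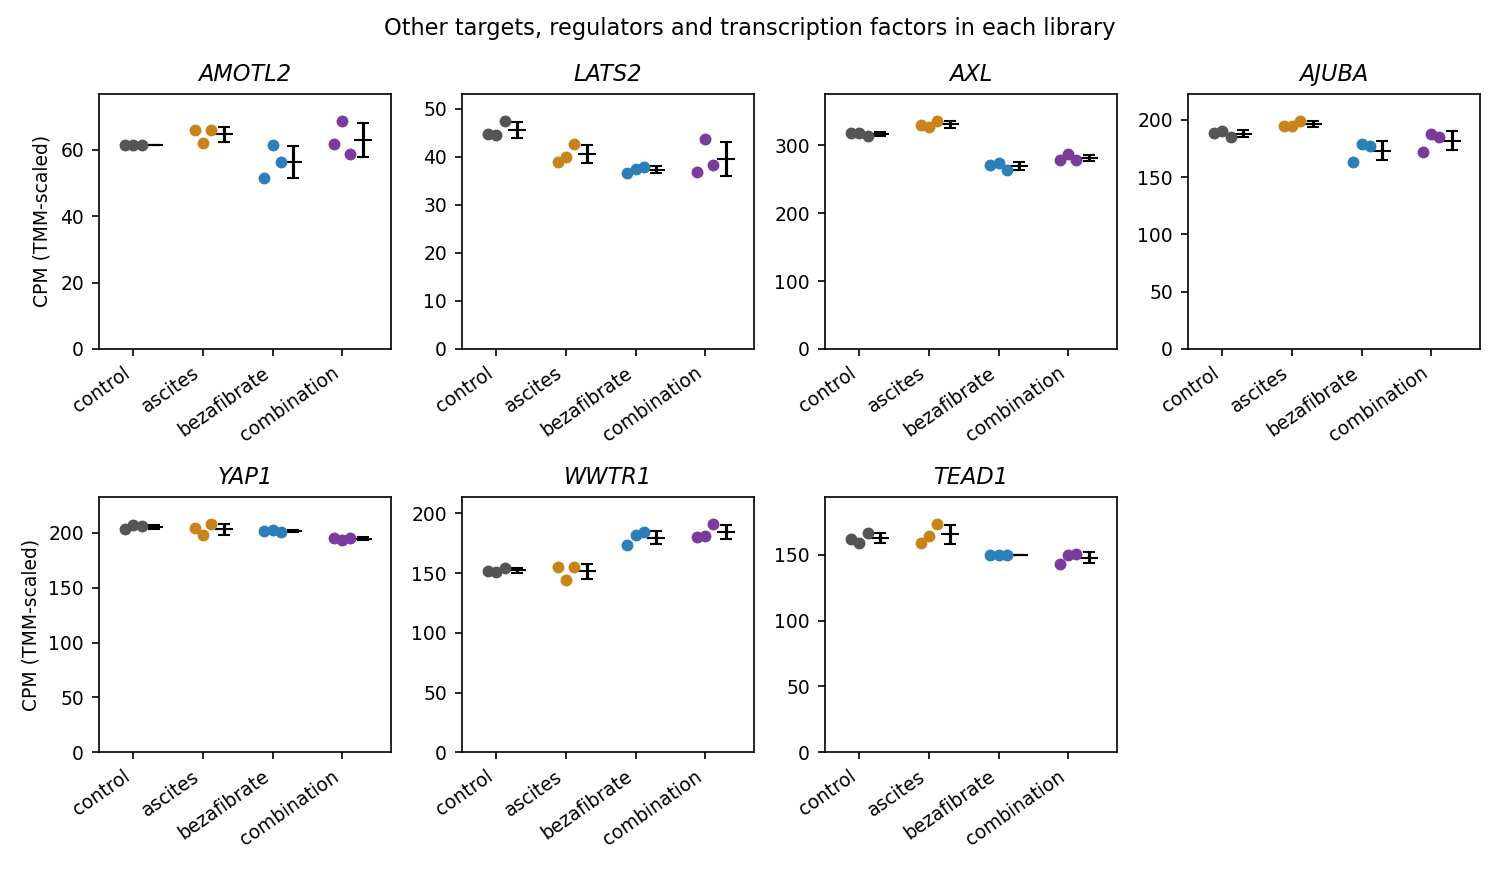
TMM-scaled CPM of AMOTL2, LATS2, AXL, AJUBA, YAP1, WWTR1 and TEAD1 in each library, with the group mean and SD (n = 3) in black. WWTR1 is the gene whose libraries with bezafibrate, between 173.4 and 190.9 CPM, lie above those without it; AXL and TEAD1 lie lower with the drug without overlap.

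Replicates of a group were close for most of these genes. The within-group SD of log2 CPM was 0.0199 for YAP1, 0.0230 for AXL and 0.0461 for CCN2, and ANKRD1 and AMOTL2 had the largest of the 10, at 0.107 and 0.0889; the median over all genes tested was 0.0821. Bezafibrate replicate 1 was the lowest of its group for CCN1, CCN2, ANKRD1, AMOTL2, LATS2, AJUBA and WWTR1. Combination replicate 2 was the highest of its group for CCN1, CCN2, ANKRD1, AMOTL2, LATS2, AXL and AJUBA, and the lowest for YAP1.

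Per kilobase of exon (GENCODE v29, GRCh38), the level in control cells was highest for ANKRD1, at 71.9 CPM per kb, then AXL at 61.5, CCN2 at 58.1 and CCN1 at 40.2. YAP1 was at 32.6 and AJUBA at 31.4, followed by WWTR1 at 18.1, TEAD1 at 15.8, AMOTL2 at 10.3 and LATS2 at 8.16 CPM per kb. With bezafibrate, AXL was highest at 52.3 CPM per kb, and YAP1 at 32.0 stood level with ANKRD1 at 31.7, CCN2 at 29.7 and CCN1 at 27.8. These levels depend on the exon models of an annotation that may not be the one used for the counting. CCN1 lies at chr1:85580761-85583962, CCN2 at chr6:131948176-131951373 and ANKRD1 at chr10:90912096-90921276.

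Some further YAP and TAZ targets fell with the drug, and others were not called. Of 19 such genes listed from general knowledge and reported here, 18 were tested for the averaged drug effect. In edgeR 11 were called lower, beside 13.2% of all genes, and 7 were not called. Of the 18 values 5 lay above 0, and the list median was -0.0909. DESeq2 called 9 lower, beside 1293 of all 12470 genes. This list and the lists below were chosen with earlier results of these data known, so their counts are a description. IGFBP3, which encodes a carrier of insulin-like growth factors, fell by 0.88 on the log2 scale (SE 0.178, edgeR adjusted p 0.00015). Its level was low, with means of 3.46 CPM in control, 2.65 with ascites, 1.45 with bezafibrate and 1.91 with both. Libraries with and without the drug overlapped, and its value was -1.27 without ascites and -0.50 with it. F3, the gene of tissue factor, fell by 0.84 (SE 0.0698, edgeR adjusted p 1.33e-12), with means of 17.2 CPM in control, 18.6 with ascites, 9.90 with bezafibrate and 10.0 with both. TGFB2, a TGF-beta ligand, fell by 0.67 (SE 0.0387, edgeR adjusted p 5.07e-17), with means of 58.2, 59.1, 37.0 and 36.8 CPM in the same order. NUAK2 fell by 0.40, a call that was lost (edgeR adjusted p 0.0539 to 0.125) without control replicate 2 or 3, ascites replicate 1 or 3, bezafibrate replicate 2 or combination replicate 1, and with DESeq2.

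Of 27 kinases and scaffolds of the Hippo pathway 26 were tested, and 2 were called higher and 6 lower with the drug, a share near the 28.3% of all genes (15% higher and 13.2% lower). Their median was -0.0298. AMOT, the founding angiomotin, fell by 0.61 at a low level (2.69 CPM in control, SE 0.171, edgeR adjusted p 0.00634). WWC1, which encodes KIBRA and activates LATS, fell by 0.28 and PTPN14, a phosphatase that binds YAP, by 0.22. LATS1 fell by 0.14 (edgeR adjusted p 0.0115), and without control replicate 2 its edgeR adjusted p was 0.06. RASSF6, a RASSF family adaptor, rose by 0.46 on average (0.59 without ascites, 0.33 with it), and STRN, a striatin of the phosphatase complex that opposes the Hippo kinases, rose by 0.15. The kinases STK3 and STK4 had values of -0.04 and -0.03 and were not called.

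Of 9 TEAD genes and cofactors, 6 were tested, with 1 called higher and 1 lower, a share near the 28.3% of all genes called. TEAD2 fell by 0.31 (SE 0.0541, edgeR adjusted p 2.67e-05), with means of 32.8 CPM in control, 33.9 with ascites, 26.5 with bezafibrate and 27.4 with both. JUN, a subunit of AP-1, which often sits beside TEAD at enhancers, rose by 0.85 (SE 0.0440, edgeR adjusted p 2.3e-18), with means of 34.7, 35.9, 61.6 and 65.5 CPM in the same order. TEAD3 and TEAD4 had values of -0.01 and 0.01, and VGLL1, VGLL2 and VGLL3 had at most 2 counts each over all libraries. Of the other 4 CCN genes, CCN3 was tested; it fell by 0.59 at a control level of 1.50 CPM (edgeR adjusted p 0.037). The call of CCN3 was lost with DESeq2 and in 8 of the 12 fits without 1 library, with adjusted p values from 0.0556 to 0.164.

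SRF with its MRTF cofactors responds to actin tension as YAP does and shares targets with it. Of 15 SRF and MRTF targets 12 were tested, 7 were called lower and 1 higher, beside 13.2% lower and 15% higher of all genes, with a list median of -0.124. MYL9, a myosin light chain, fell by 0.24, TPM1, a tropomyosin, by 0.21, and CNN2, a calponin, and CALD1, caldesmon, each by 0.18. FHL2, a LIM protein, rose by 0.29 on average, with means of 96.8 CPM in control, 104.1 with ascites, 121.1 with bezafibrate and 124.3 with both. SRF itself had a value of -0.09 and was not called. With ascites against control, edgeR and DESeq2 each called 0 genes in all 5 lists; an unadjusted p under 0.05 was found for 4 of 26 Hippo kinases and scaffolds, 1 of 6 TEAD genes and cofactors, 2 of 18 YAP and TAZ targets, 0 of 1 CCN gene and 2 of 12 SRF and MRTF targets, beside 6.01% of all genes.

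**Figure D5:**
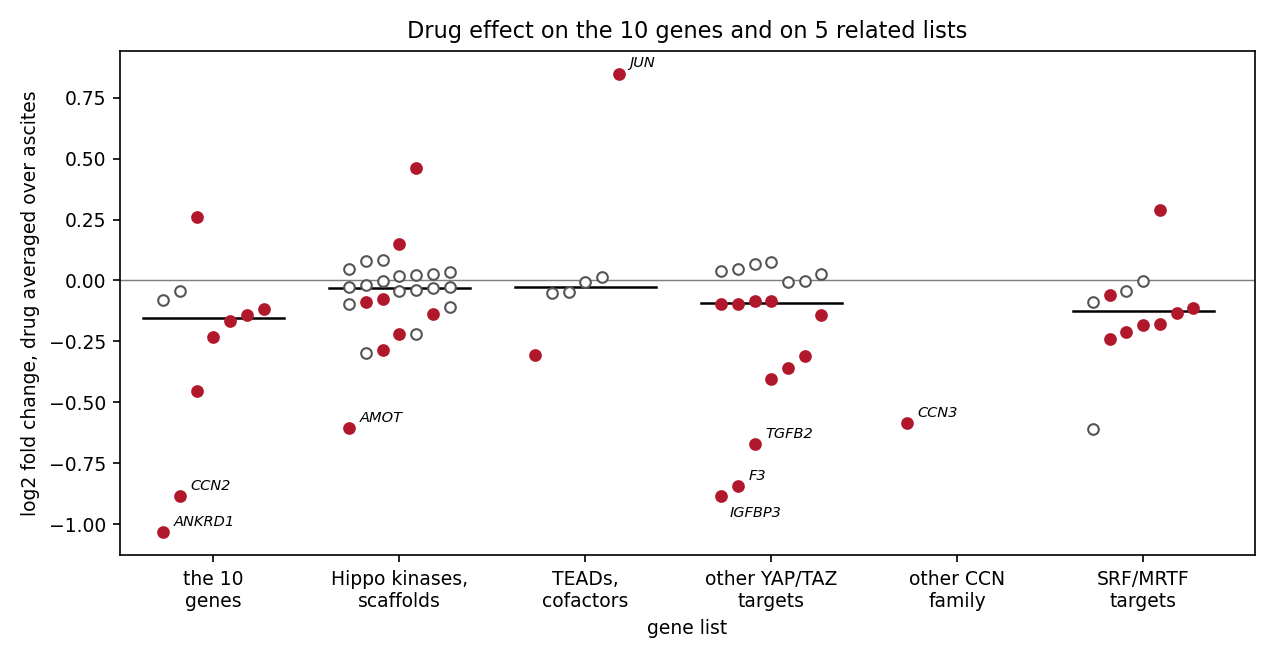
Log2 fold change with bezafibrate, averaged over cells without and with ascites, of the tested genes of 6 lists; filled red points passed an adjusted p of 0.05, black lines are list medians, and called genes beyond 0.55 are named. Most called YAP and TAZ targets and SRF and MRTF targets lie below 0, with JUN, at 0.85, far above it.

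Over the 12 libraries, the 3 genes with the pattern most like CCN1 among 11925 others were ANKRD1, TPM1 and RBMS2, with Pearson's r of 0.978, 0.972 and 0.959 (Spearman's rho 0.986, 0.979 and 0.944). For ANKRD1 they were RBMS2, CD44 and CCN2 (r of 0.985, 0.984 and 0.980; rho of 0.944, 0.846 and 0.951). For CCN2 they were MUC13, DKK1 and COL5A2 (r of 0.987, 0.985 and 0.984; rho of 0.937, 0.888 and 0.783). The genes were ranked by r, so no test applies, and the libraries fall into those with and without the drug, which all of these genes share. With group means removed, r was 0.709 for ANKRD1 with CCN1, 0.515 for TPM1 with CCN1 and 0.682 for CD44 with ANKRD1. It was 0.0435 for CCN2 with ANKRD1 and -0.609 for DKK1 with CCN2. DKK1, a secreted Wnt inhibitor, went from 888.2 CPM in control to 569.4 with bezafibrate, and RBMS2, an RNA-binding protein, from 103.2 to 75.1. AXL ranked 6 for CCN1, 9 for CCN2 and 7 for ANKRD1 by the same measure.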

How the data were processed

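For each of 12 libraries the authors deposited counts, as whole numbers per gene. Per the submitters' processing notes, GRCh38, Trimmomatic 0.39, STAR 2.7.9a, RSEM 1.3.3 and DESeq2 1.28.1 were used; their roles, the annotation release and the use of strand are not given in the sources used here, nor is any rounding of RSEM estimates. Genes were kept by filterByExpr (minimum count 10, minimum total 15), which left 12470 of 19677. Counts were scaled by TMM and fitted with edgeR 4.0.16 (R 4.3.3), 1 mean per group, 8 residual degrees of freedom, robust quasi-likelihood test, Benjamini-Hochberg adjustment over all genes tested and a threshold of 0.05. The averaged drug effect is the mean of bezafibrate against control and combination against ascites. Standard errors are the log2 fold change over the square root of F. Log2 CPM used a prior count of 2. Alternatives were DESeq2 size factors, upper-quartile scaling, no filter, DESeq2 1.42.0, a replicate block, only the compared groups, and leaving out each library.

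The 10 genes and all lists were chosen with earlier results of these data known. A listed YAP and TAZ target is not reported here, and the counts and median of its list are without it, so they do not show the direction of the whole list. Besides the 10, list genes were named if called with ascites, or among the 4 highest or 4 lowest called for the averaged drug effect in their list with a mean of at least 1 CPM; genes of like pattern were the 3 with the highest r. Cell type markers and list members given as not called were named after their values were seen. Replicates of a group differed beyond counting noise (chi-square per degree of freedom 1.44 to 4.45), and each library counted once.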

Additional observations from a re-analysis of the deposited data

How the results depend on the processing

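For the averaged drug effect, the 8 calls among the 10 genes and the sign of all 10 held in all 17 alternatives; AMOTL2 (without bezafibrate replicate 2 or combination replicate 2) and YAP1 (upper-quartile scaling) were called in addition. ANKRD1 ranged from -1.07 to -0.98, CCN2 from -0.90 to -0.87 and CCN1 from -0.48 to -0.43. For ascites against control 0 of the 10 genes were called in any of 12 alternatives. There the sign turned in fits without 1 library for YAP1 (range -0.0274 to 0.0059), WWTR1 (-0.0225 to 0.028), TEAD1 (-0.006 to 0.0538), WWC1 (-0.0046 to 0.0565), AMOT (-0.0928 to 0.208), STRN (-0.0521 to 0.0292), TEAD2 (-0.0066 to 0.120), JUN (-0.0014 to 0.103), CALD1 (-0.0301 to 0.0063), PTPN14 (-0.0289 to 0.0367) and CCN3 (-0.209 to 0.251), each near 0 or at a low level.

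Over all genes, the 11 called for ascites against control became 59 with no filter on low counts and 33 in a fit of the compared groups alone, and 3 (without control replicate 3 or ascites replicate 3) to 5 (without control replicate 1 or ascites replicate 2) with 1 library left out. The 16 called for combination against bezafibrate became 52 with no filter and 7 (0 of them higher) in a fit of the compared groups alone, and 9 (without bezafibrate replicate 2), 10 (without bezafibrate replicate 1) to 28 (without combination replicate 3) with 1 library left out. The cause was not tested. The 3525 calls of the averaged drug effect ranged from 3133 to 3620 with 1 library left out and numbered 2845 with DESeq2. Under upper-quartile scaling 43.3% of 3693 calls were higher, against 53.2% of 3525.

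Replicate numbers are shared by the groups, but same-numbered libraries did not deviate together (r from -0.267 to 0.185 over 18 pairs, 2 of them over 0.1), and 4 of 12 libraries correlated best with their own number. With the replicate number as a block, 8 genes were called for ascites against control, 3453 for the averaged drug effect, 2145 for bezafibrate against control, 2154 for combination against ascites and 14 for combination against bezafibrate. No call among the 10 genes changed with the block in the 2 comparisons tested for them, ascites against control and the averaged drug effect.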
